A study of Mus musculus with 6 samples.

Results

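MHC class I antigen presentation was followed through 10 genes of the 56953 in the table of mouse embryonic fibroblasts (MEFs), connective tissue cells grown from mouse embryos. They were chosen by name as the classical heavy chains H2-K1 and H2-D1, the light chain B2m, the peptide transporter subunits Tap1 and Tap2, the loading protein Tapbp, the immunoproteasome subunits Psmb8, Psmb9 and Psmb10, and the transactivator Nlrc5. The rule names genes and uses no measured value, though the names were picked with earlier results of these data known. All 10 were found in the table by their Ensembl identifiers. Every member with reads in the table, 8 of the 10, was higher in the libraries labelled GαqKO than in the WT libraries, where 31.8% of all tested genes were called higher. Of those 8, Psmb8 and Psmb9 reached the minimum count only in GαqKO, and the other two members, B2m and Psmb10, were listed at 0 throughout.

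The study profiled poly-A RNA from 3 WT and 3 GαqKO libraries, described as biological replicates of each genotype. It lists 1 MEF line per genotype, and the libraries were taken here as replicates of that line. The GαqKO line is a knockout of both Gnaq and Gna11, which encode the α subunits Gαq and Gα11 of heterotrimeric G proteins, and neither line received a treatment. Both lines were grown in DMEM with fetal bovine serum and came from an outside laboratory, and their mouse strain, histocompatibility haplotype, number of passages and clonal origin are not given in the sources used here. A difference between the genotypes therefore cannot be told apart from a difference between the lines. The p-values measure the spread between libraries of a line.

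MHC class I molecules show peptides from inside the cell to cytotoxic T cells. The proteasome cuts proteins into peptides, and interferon replaces its constitutive catalytic subunits with the immunoproteasome subunits Psmb8, Psmb9 and Psmb10. Tap1 and Tap2 carry the peptides into the endoplasmic reticulum, where Tapbp (tapasin) holds the transporter next to an empty heavy chain paired with β2-microglobulin. Nlrc5 is a nuclear protein of the NLR family that, on class I promoters, acts with the RFX factors as the class I counterpart of Ciita. Fibroblasts are known to carry class I at the surface at modest levels and to raise it under interferon.

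The promoter stretches of the heavy chains are shown because these letters hold the classical class I control elements, and that of H2-T22, a class I-like gene outside the classical pair, because it rose most among the class I heavy chain genes tested. All come from the RefSeq promoter table (GRCm38.p6, windows of 250 bases before and 50 after each start) and were placed in GRCm39 by exact match. It holds 8 of the 10 members, without Tap2 and Nlrc5. The stretch of H2-K1 is chr17:34219333-34219431 on the minus strand, and 60 of its 99 bases lie in GENCODE exons. That of H2-D1 starts at chr17:35481900-35481928 on the plus strand, and only its first 29 bases are printed because GENCODE places it in the 5′ UTR of the H2-D1 transcripts that start farther upstream. That of H2-T22 is chr17:36353693-36353824 on the minus strand, upstream of its RefSeq start. Capitals mark, as printed or as the reverse complement, enhancer A (GGGATTCCC, a binding sequence of NF-κB), interferon-type elements (GAANNGAAA and GAAANNGAA), the X2 core (TGACG) and the CCAAT box.
H2-K1: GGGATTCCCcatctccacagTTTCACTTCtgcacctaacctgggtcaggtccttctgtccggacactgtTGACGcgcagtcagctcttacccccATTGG
H2-D1: GGGATTCCCcatctcctcagTTTCACTTC
H2-T22: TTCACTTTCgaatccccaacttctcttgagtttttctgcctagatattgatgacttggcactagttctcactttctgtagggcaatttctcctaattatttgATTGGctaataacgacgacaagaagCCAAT

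Over the whole 99 bases the heavy chain stretches were identical at 88 positions (88.9%). Both strands of all 32851 windows were searched, and overlap between motifs was allowed. Enhancer A was held by 0.353% of windows, among them those of H2-K1 and H2-D1 and of no other member with a window. Tap2 and Nlrc5 have no window and were not searched. GAANNGAAA was in 7.52% of windows, again with H2-K1 and H2-D1, and GAAANNGAA in 8.56%, with B2m. The short TGACG core stood in 20.8% of windows and in those of 5 members (H2-K1, H2-D1, B2m, Tap1 and Psmb9), and CCAAT in 37.4% of windows and in those of 6. The STAT-type sequence TTCNNNGAA was in 8.3% of windows and, among the members with a window, in that of Psmb8. A match here is a description of letters and not of binding.

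Values are normalized counts, that is, gene counts divided by 1 size factor per library. The 6 libraries summed to between 11392429 and 11483486, and the reads recovered in 5 of them ran from 9853000 to 12229175. Differences were tested with limma on log2(normalized count + 1) over the 14096 genes that reached 10 normalized counts in 3 or more of the libraries. A gene is called at a Benjamini-Hochberg adjusted p under 0.05, and "past both thresholds" also asks for a log2 fold change over 1 or under -1. The lines differed at very many genes: 31.8% of the tested genes were called higher in GαqKO and 34.1% lower, with 10.2% higher and 10.5% lower past both thresholds, and the median log2 fold change was -0.01. The call of a single gene is thus common here.

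The targeted genes were read first. Gna11 fell from 2147.9 ± 29.0 (SD, n = 3) to 451.6 ± 28.7 normalized counts (log2 fold change -2.25, limma adjusted p = 9.16e-13). Gnaq RNA did not fall: it was 1690.8 ± 48.5 in WT and 1926.3 ± 36.0 in the libraries labelled GαqKO (log2 fold change 0.19, adjusted p = 0.00212). Reads over a gene do not tell whether its product can be made. By Western blot and immunofluorescence, the study reported that its GαqKO MEFs lack Gαq protein.

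Fibroblast and other cell type markers were checked next. Vim and the collagen gene Col1a1 were high in every library, at 33507.6 ± 729.0 and 5774.5 ± 272.1 in GαqKO and 41784.9 ± 2519.3 and 16671.0 ± 1167.8 in WT. Pdgfra, Dcn and Thy1 were near the low end in WT, at means of 19.6, 32.1 and 0.7, against 2319.7, 1662.8 and 64.9 in GαqKO, so these fibroblast markers hardly mark the WT line. The pan-leukocyte marker Ptprc stayed between 0.0 and 3.1 in all 6 libraries. Itgam was listed at 0, but 99.1% of its exon bases lie inside another gene, as with B2m below. The 8 leukocyte markers together summed to 104.4 to 115.0 in WT and 70.4 to 104.1 in GαqKO, mostly from Cd68, which fell from 93.0 to 66.9. The 4 endothelial markers summed to 12.6 to 22.4 in WT and 15.0 to 25.5 in GαqKO. Epithelial markers were the set that stood apart, with 6 genes summing to 515.1 to 540.8 in WT and 10.0 to 23.2 in GαqKO, mostly from Cdh1 and Krt14. Their part in the differences below was not tested.

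Among the members, 8 of 10 were tested, and 8 were called higher, 0 lower, and 5 past both thresholds (Tap1, Tap2, Psmb8, Psmb9 and Nlrc5). In all 8 the lowest GαqKO library lay above the highest WT library, a pattern that 33.8% of tested genes showed. Psmb8 and Psmb9 passed the filter on low values only through the GαqKO libraries, so they had to differ, and the median of 1.28 over the 8 tested describes these genes only. The remaining 6 had at least 10 normalized counts in every library.

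**Figure D1:**
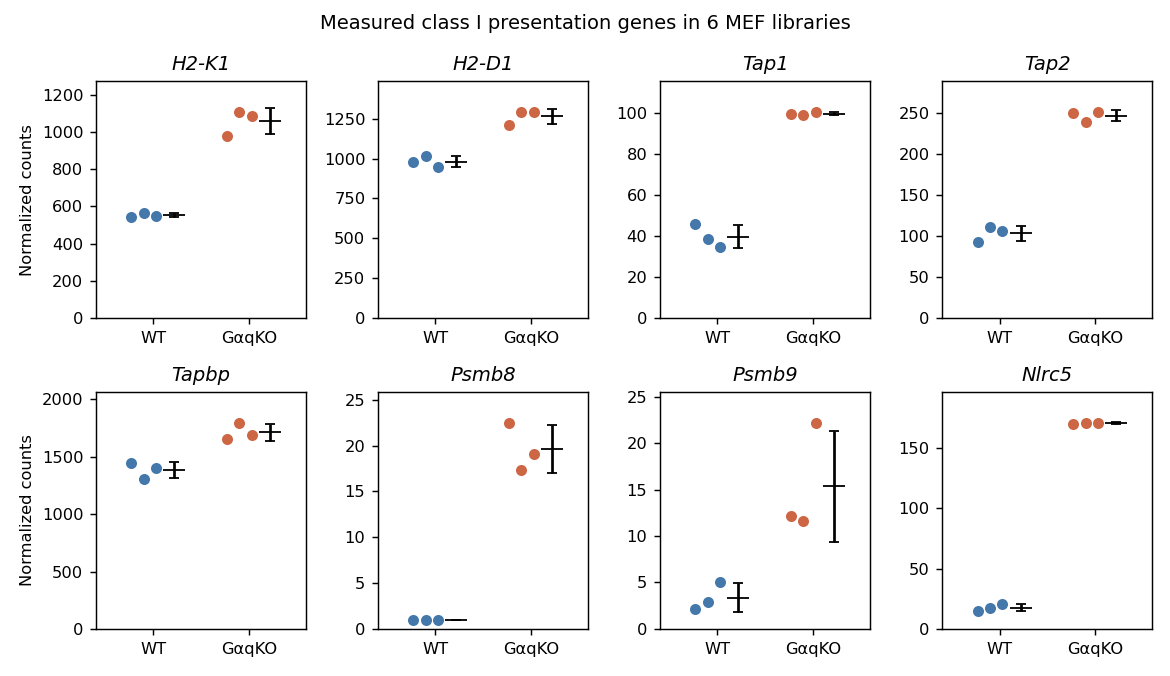
Normalized counts (vertical axis, linear from 0, a scale for each gene) of the 8 measured members in 3 WT (blue) and 3 GαqKO (orange) MEF libraries, with 1 point per library and the mean ± SD in black. No GαqKO point lies as low as a WT point, with Nlrc5 at 14.6 to 20.4 in WT and 170.0 to 171.2 in GαqKO and H2-D1 at 946.6 to 1018.1 and 1209.5 to 1292.0.

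Both classical heavy chains rose. H2-K1 (ENSMUSG00000061232.17, chr17:34214987-34219321, minus strand) had 545.1, 563.4 and 546.6 normalized counts in WT replicates 1 to 3 and 976.6, 1106.5 and 1084.6 in GαqKO. The WT libraries agreed closely and all GαqKO libraries lay well above them, at a ratio of means of 1.91. The log2 fold change was 0.93 (SE 0.0614, adjusted p = 1.23e-08), just short of the fold threshold. H2-D1 (ENSMUSG00000073411.13, chr17:35481691-35486475, plus strand) had 978.4, 1018.1 and 946.6 in WT and 1209.5, 1290.4 and 1292.0 in GαqKO. Its step was smaller, a ratio of 1.29 and a log2 fold change of 0.37 (SE 0.0526, adjusted p = 3.34e-05), with no overlap between the groups.

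The ratio of the heavy chains within a library differed between the lines as well. H2-K1 over H2-D1 was 0.557, 0.553 and 0.577 in WT and 0.807, 0.858 and 0.839 in GαqKO. The mean ratio went from 0.563 ± 0.0129 to 0.835 ± 0.0254 (SD, n = 3, two-sided exact permutation p = 0.1, the smallest that 3 against 3 allows, and 0.125 adjusted over the 5 within-library ratios computed). The ratio compares libraries and not the levels of the genes, which differ in length. H2-K1 and H2-D1 are close relatives of each other and of the other class I genes, and how the counting shared out reads from near-identical exons is not given, so the separate values of these genes are uncertain.

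The light chain could not be followed. B2m (ENSMUSG00000060802.9, chr2:121977957-121983594, plus strand) encodes β2-microglobulin, which every nucleated cell with class I makes, and it was listed at 0 in all 6 libraries. All of its exon bases (100.0%) lie inside the annotated span of Patl2, on the other strand. Psmb10 (ENSMUSG00000031897.10, chr8:106662362-106665077, minus strand), likewise listed at 0, has 100.0% of its exon bases inside Gm16156. Of 1607 protein-coding genes with exons wholly inside other genes, 71.5% were at 0 in every library, against 25.2% of the 11516 with no overlap. These zeros are given as listings and say nothing of the RNA in the cells.

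Outside the classical pair, the 21 class I-like genes went in no common direction. Of these, 7 were tested, 2 were higher (28.6%), 2 lower (28.6%) and 3 not called, with a median log2 fold change of -0.01. Both shares were near those of all tested genes (31.8% and 34.1%). A further 8 were listed at 0, 5 were under the filter and 1 (H2-Bl) was not matched. H2-T22, whose product is recognised by a set of γδ T cells, had 2.1, 2.9 and 2.0 normalized counts in WT and 118.3, 123.7 and 119.8 in GαqKO. It went from near absence to a steady level, with 7 reads over the 3 WT libraries against 233 over the 2 GαqKO libraries with recovered reads. That is 51.2 times as many for the depth, with a 95% exact interval of 24.5 to 129 that covers counting error only. H2-T22 passed the filter on low values only through GαqKO, so it had to differ, and its fitted log2 fold change of 5.19 (SE 0.28) is a description. Of its exon bases, 38.7% lie inside A930015D03Rik. The limit on the separate values of class I genes, given above, holds for H2-T22 too. The haplotype of the lines is not given, and its part in the low WT count was not tested.

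H2-M3, which binds peptides that start with N-formylmethionine, was higher as well, at 61.6, 50.5 and 49.9 in WT and 80.8, 96.0 and 100.7 in GαqKO (log2 fold change 0.77, SE 0.174, adjusted p = 0.00153), with all of its exon bases inside Gm20429. H2-Q4, a secreted or membrane class Ib molecule of the Qa region, went the other way, from 207.8, 208.9 and 202.6 to 159.6, 148.0 and 157.1 (log2 fold change -0.41, SE 0.102, adjusted p = 0.0028). Mr1, which shows vitamin B metabolites to MAIT cells, was at 83.7 ± 12.6 in WT and 62.0 ± 1.7 in GαqKO (log2 fold change -0.42, SE 0.171, adjusted p = 0.0458). DESeq2 on the 5 libraries with reads put H2-Q4 at an adjusted p of 0.0673. H2-T22, H2-M3 and Mr1 were named after their values were seen.

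Both subunits of the peptide transporter rose. Tap1 (ENSMUSG00000037321.18, chr17:34405996-34416199, plus strand) had 45.9, 38.9 and 34.6 normalized counts in WT and 99.5, 99.4 and 100.7 in GαqKO. The GαqKO libraries hardly differed from each other and each held over 2 times the count of any WT library. The log2 fold change was 1.32 (SE 0.177, adjusted p = 1.75e-05). Tap2 (ENSMUSG00000024339.13, chr17:34422501-34435829, plus strand) had 92.9, 111.7 and 105.9 in WT and 250.7, 239.3 and 251.8 in GαqKO, at a log2 fold change of 1.25 (SE 0.115, adjusted p = 3.9e-07). Tap1 over Tap2 was 0.39 ± 0.0912 in WT and 0.404 ± 0.0099 in GαqKO (two-sided exact permutation p = 1.0, in a design that cannot go below 0.1). Of Tap2's exon bases 53.1% lie in the spans of Gm20496 and Gm15821, and of Tap1's 12.4% in that of Psmb9.

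Tapbp (ENSMUSG00000024308.16, chr17:34134873-34148267, plus strand), which edits the peptide cargo, moved little. It had 1443.1, 1309.5 and 1405.6 in WT and 1654.6, 1796.8 and 1692.8 in GαqKO. All GαqKO libraries were above all WT libraries, at a log2 fold change of 0.31 (SE 0.0528, adjusted p = 1.64e-04). Of Tapbp's exon bases 45.4% lie in the spans of Zbtb22 and Gm19412. Among the members Tap1, Tap2 and Tapbp the fitted log2 fold changes thus ran from 0.31 for Tapbp to 1.32 for Tap1, a difference that was not tested.

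The general chaperones of the endoplasmic reticulum did not share the rise. Of the 9 listed genes of loading and trimming, 8 were tested, and 1 was higher (12.5%), 6 were lower (75.0%) and 1 was not called. Their median log2 fold change was -0.24, and of all tested genes 31.8% were higher and 34.1% lower. Erap1, the aminopeptidase that trims peptides to the length class I holds, was the gene that rose, from 243.3, 199.1 and 213.7 to 383.1, 404.7 and 446.1 normalized counts (log2 fold change 0.91, SE 0.0971, adjusted p = 1.8e-06). The lectin chaperone Calr fell by 0.15 on the log2 scale (SE 0.0407, adjusted p = 0.00569) and the disulfide isomerase Pdia3 by 0.28 (SE 0.0468, adjusted p = 1.12e-04). Lnpep, a trimming peptidase of endosomes, fell by 0.50 (SE 0.0825, adjusted p = 1.07e-04), the largest fall of the list. Canx, the membrane-bound lectin chaperone, had a log2 fold change of -0.06 (SE 0.0378, adjusted p = 0.21). Tapbpl, a relative of tapasin, was listed at 0, and it lies inside Vamp1.

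The immunoproteasome subunits went from a trace to a low but countable level. Psmb8 (ENSMUSG00000024338.16, chr17:34416690-34420428, plus strand), the chymotrypsin-like subunit, had 1.0 normalized count in each WT library and 22.5, 17.3 and 19.1 in GαqKO. That was 1 read in each WT library against 24 and 15 reads in GαqKO replicates 1 and 2. For the depth it is 20 times as many, with a 95% exact interval of 6.36 to 101. The fitted log2 fold change was 3.35 (SE 0.434, limma adjusted p = 1.21e-05). Psmb8 passed the filter on low values only through GαqKO, so it had to differ, and these values are a description. Of its exon bases 55.0% lie in the span of Gm20496.

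Psmb9 (ENSMUSG00000096727.4, chr17:34400960-34406738, minus strand), the caspase-like position, had 2.1, 2.9 and 5.1 in WT and 12.2, 11.6 and 22.2 in GαqKO. GαqKO replicate 3 stood well above the other GαqKO libraries, and all 3 above WT. The reads were 2, 3 and 5 against 13 and 10, a ratio of 3.54 with an interval of 1.62 to 8.33. The log2 fold change was 1.90 (SE 0.451, limma adjusted p = 0.0021), and DESeq2 on the 5 libraries with reads did not call it (log2 fold change 1.83, adjusted p = 0.138). Psmb9 too passed the filter only through GαqKO, so it had to differ, and its limma values are a description. Psmb9 and Tap1 start head to head, with 225 bases between their RefSeq starts, and their GENCODE spans share 743 bases.

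The constitutive catalytic subunits that Psmb8 and Psmb9 replace did not move together. Psmb5, the counterpart of Psmb8, had 116.9, 116.6 and 116.0 in WT and 146.5, 136.4 and 154.1 in GαqKO (log2 fold change 0.32, SE 0.12, adjusted p = 0.0323). Its call was lost without WT replicate 1, 2 or 3 (adjusted p 0.0555, 0.0652 and 0.0578), without GαqKO replicate 1 or 3 (0.0713 and 0.102), in edgeR (0.0783) and in DESeq2 (0.341). Psmb6, the counterpart of Psmb9, was at 431.7 ± 12.6 in WT and 373.4 ± 19.0 in GαqKO (log2 fold change -0.21, SE 0.0729, adjusted p = 0.0213). This call too was lost without WT replicate 1 or 2 (0.0562 and 0.0621), without GαqKO replicate 2 (0.0854) and in DESeq2 (0.187). Psmb7, the counterpart of Psmb10, was at 55.8 ± 6.1 and 44.0 ± 7.7 (log2 fold change -0.35, SE 0.208, adjusted p = 0.159).

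Within libraries, Psmb8 over Psmb5 was 0.00868 ± 0.000309 in WT and 0.135 ± 0.0163 in GαqKO, and Psmb9 over Psmb6 was 0.00787 ± 0.00387 and 0.0408 ± 0.0148. Neither ratio overlapped between the groups (two-sided exact permutation p = 0.1 for each, the smallest possible, and 0.125 adjusted over the 5 ratios). Psmb8 and Psmb9 passed the filter only through GαqKO, so this separation was largely set in advance and is a description. The immunoproteasome counts remained a small part of those of the constitutive subunits in GαqKO as well, with gene length not taken into account.

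The other proteasome genes were mixed. Of the 11 remaining subunits of the 20S core, all tested, 6 were higher (54.5%), 3 lower (27.3%) and 2 not called. Their median log2 fold change was 0.24, and of all tested genes 31.8% were higher and 34.1% lower. Psma7, a structural subunit of the outer ring, rose the most, from 727.0 ± 36.9 to 1287.5 ± 43.8 (log2 fold change 0.82, SE 0.0562, adjusted p = 1.76e-08), and Psma2 of the same ring fell by 0.44 (SE 0.0843, adjusted p = 4.1e-04). Of 9 activator and assembly genes 4 were higher (44.4%) and 0 lower, beside the same shares of all tested genes. Psme1 and Psme2 encode the α and β subunits of PA28, the activator that interferon induces beside the immunoproteasome. Psme1 had 139.9, 144.7 and 131.3 in WT and 241.3, 284.4 and 271.9 in GαqKO (log2 fold change 0.93, SE 0.107, adjusted p = 3.62e-06). Psme2 had 92.9, 94.2 and 95.7 and then 154.9, 152.6 and 148.0 (log2 fold change 0.68, SE 0.123, adjusted p = 2.42e-04). Both subunits were thus higher in every GαqKO library than in any WT library. Their ratio went from 1.47 ± 0.0871 to 1.75 ± 0.169 (two-sided exact permutation p = 0.1, adjusted 0.125). Of Psme1's exon bases 55.3% lie inside Emc9 and of Psme2's 30.8% inside Rnf31.

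Of the 6 cytosolic peptidases that trim or destroy proteasome products, 1 was higher (16.7%), 4 lower (66.7%) and 1 not called. Of all tested genes 31.8% were higher and 34.1% lower. The median log2 fold change of the 6 was -0.33. The gene that rose was Lap3, the leucine aminopeptidase that interferon γ is known to induce. It rose past both thresholds from 496.0, 491.5 and 458.0 to 978.5, 1064.9 and 982.9 (log2 fold change 1.06, SE 0.0617, adjusted p = 3.29e-09). Thop1, an oligopeptidase that degrades class I peptides, fell from 1407.6 ± 54.0 to 993.4 ± 20.4 (log2 fold change -0.50, SE 0.0503, adjusted p = 9.57e-07).

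**Figure D2:**
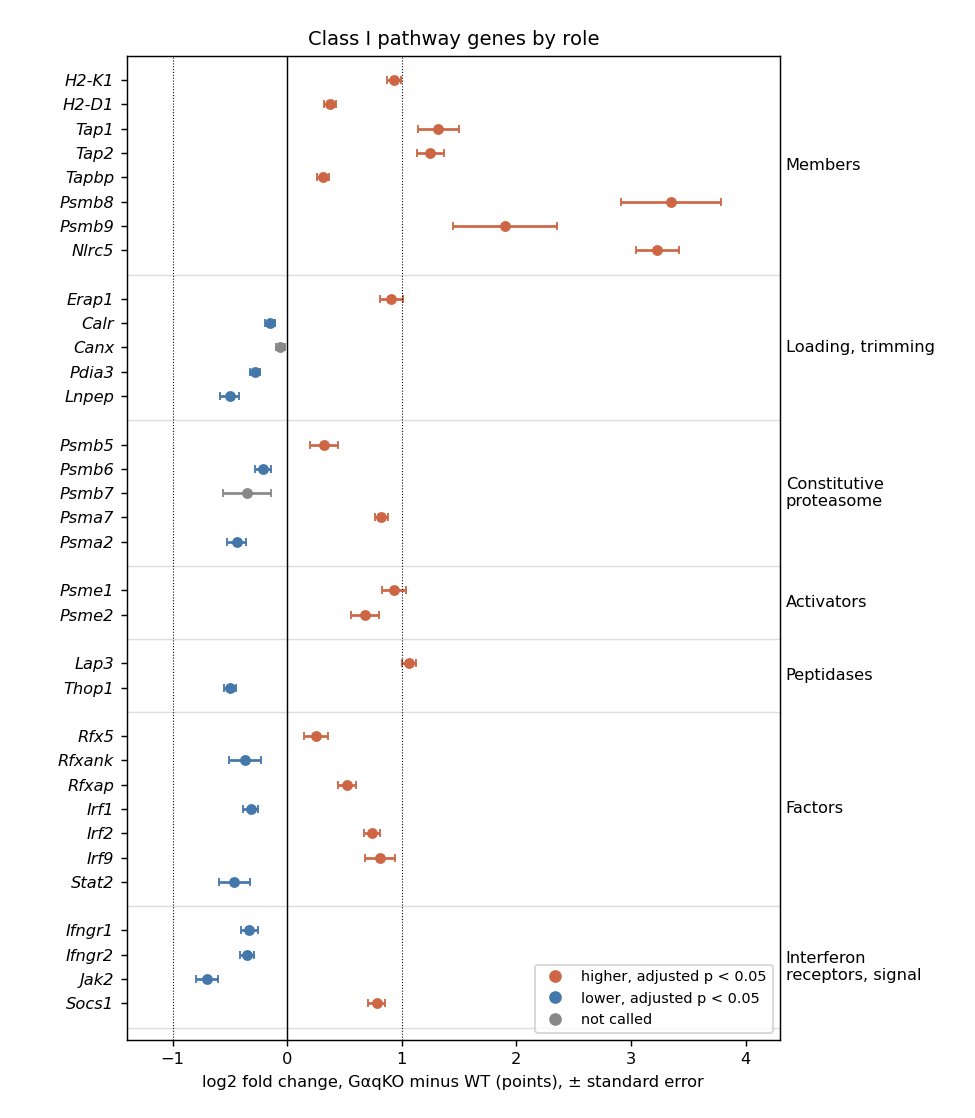
Log2 fold change (horizontal axis, GαqKO minus WT, fitted on log2 of normalized count + 1, with its standard error) of the members and of the named pathway genes by role. Orange is called higher, blue called lower and grey not called in limma, and dotted lines mark log2 fold changes of -1 and 1. All 8 measured members lie right of 0, while in the loading and trimming group Erap1 (0.91) stands alone on that side.

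Nlrc5 was low in WT and many times higher in GαqKO. Nlrc5 (ENSMUSG00000074151.14, chr8:95160984-95253900, plus strand) had 14.6, 17.5 and 20.4 normalized counts in WT and 170.0, 171.1 and 171.2 in GαqKO. The GαqKO libraries were nearly equal, and the lowest held over 8 times the highest WT value. The ratio of means was 9.76, and the log2 fold change 3.23 (SE 0.189, adjusted p = 3.73e-09). The reads were 14, 18 and 20 in WT and 181 and 148 in GαqKO, a ratio of 9.74 with a 95% exact interval of 7.25 to 13.3.

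The factors around Nlrc5 did not rise with it as a group. Of 19 class I transcription factors and silencers, all tested, 8 were higher (42.1%), 7 lower (36.8%) and 4 not called. Their median log2 fold change was 0.01, and of all tested genes 31.8% were higher and 34.1% lower. The 3 RFX subunits, which bind the X box, split: Rfxap rose from 406.6 ± 29.6 to 584.1 ± 38.6 (log2 fold change 0.52, SE 0.0767, adjusted p = 4.01e-05). Rfx5, the DNA-binding subunit, was at 185.2 ± 14.9 and 220.0 ± 10.4 (log2 fold change 0.25, SE 0.104, adjusted p = 0.0483), a call lost without WT replicate 2 or 3 (0.171 and 0.0653), without GαqKO replicate 1 or 3 (0.114 and 0.129), with no filter on low values (0.0627), in edgeR (0.0952) and in DESeq2 (0.353). Rfxank was lower, at 126.7 ± 10.4 and 97.9 ± 8.4 (log2 fold change -0.37, SE 0.138, adjusted p = 0.0301), a call lost without WT replicate 3 or GαqKO replicate 1 (0.103 for each) and in DESeq2 (0.179). Of Rfx5's exon bases 48.5% and of Rfxank's 49.8% lie inside other genes.

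Interferon factors were likewise divided. Irf1, an activator of Tap1, Psmb9 and class I transcription, has all of its exon bases (100.0%) inside Gm12216 and Gm17334. Irf1 had 773.7, 692.6 and 717.6 in WT and 612.2, 574.7 and 558.9 in GαqKO, so it was lower in every GαqKO library (log2 fold change -0.32, SE 0.0649, adjusted p = 6.1e-04). Irf2, which shares its binding sequence, rose from 551.1 ± 35.0 to 923.9 ± 80.8 (log2 fold change 0.74, SE 0.0727, adjusted p = 7.59e-07). Irf9, the DNA-binding part of the complex ISGF3, rose from 218.0 ± 20.4 to 387.8 ± 82.8 (log2 fold change 0.81, SE 0.13, adjusted p = 8.45e-05), with GαqKO replicate 3 at 483.4 against 343.7 and 336.5. Its partner Stat2 fell by 0.46 (SE 0.135, adjusted p = 0.00811).

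Genes of the interferon receptors, their kinases and their regulators were more often lower than higher. Of 9 such genes, 1 was higher (11.1%), 5 lower (55.6%) and 3 not called, with a median log2 fold change of -0.24. Of all tested genes 31.8% were higher and 34.1% lower. The receptor chains of interferon γ, Ifngr1 and Ifngr2, fell from 504.3 ± 19.2 to 401.8 ± 26.1 (log2 fold change -0.33, SE 0.0733, adjusted p = 0.00135) and from 778.6 ± 49.1 to 608.7 ± 15.6 (log2 fold change -0.35, SE 0.0627, adjusted p = 2.16e-04). The kinase Jak2 fell from 316.1 ± 14.9 to 194.6 ± 14.5 (log2 fold change -0.70, SE 0.0939, adjusted p = 1.73e-05). The gene that rose was Socs1, an inhibitor of these kinases that interferon induces, from 279.8, 277.8 and 267.7 to 471.4, 499.5 and 452.2 (log2 fold change 0.78, SE 0.0754, adjusted p = 6.39e-07). The 5 interferon ligands listed (Ifng, Ifnb1, Ifnk, Ifnl2 and Ifnl3) were listed at 0 in all 6 libraries, of which Ifnk has 100.0% of its exon bases inside Mob3b.

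Class II genes, which Ciita controls through the same X box, gave no matching pattern. Ciita fell short of the filter, with normalized counts of 1.0 ± 1.8 and 1.2 ± 2.0. Of 11 class II genes 3 were tested, with 1 higher (33.3%) and 2 lower (66.7%), against 31.8% and 34.1% of all tested genes. The invariant chain Cd74 was at 26.2 ± 3.1 in WT and 13.9 ± 2.0 in GαqKO (log2 fold change -0.87, SE 0.286, adjusted p = 0.0157), a call lost with no filter on low values (0.0619) and in DESeq2 (0.179). H2-DMa, a chain of the class II peptide editor, fell from 121.2 ± 14.5 to 87.6 ± 5.9 (log2 fold change -0.46, SE 0.145, adjusted p = 0.0128), a call lost without WT replicate 3 (0.0602) and in DESeq2 (0.115). H2-DMb1, which encodes its partner chain, rose from 22.8 ± 5.5 to 59.6 ± 4.5 (log2 fold change 1.37, SE 0.241, adjusted p = 1.94e-04). It was named after its values were seen, and the partners thus moved in opposite directions.

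Over these lists without class II, 91 of the 92 other pathway genes were matched, and of the 72 tested 24 were higher (33.3%) and 28 lower (38.9%), near the shares of all tested genes. Past both thresholds 2 were higher (Lap3 and H2-T22, the latter tested only through its GαqKO values) and 0 lower, and the median log2 fold change was -0.06. The members' own values ran from 0.31 to 3.35, with Psmb8 and Psmb9 likewise tested only through their GαqKO values. The member names were picked with earlier results known, and a difference between the members and the other pathway genes was not tested.

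Of the members, 7 lie on chromosome 17 in or beside the major histocompatibility complex, and the tested neighbours outside the lists were called in both directions. H2-K1 and H2-D1 start 1262.4 kb apart, and Tap1, Psmb9, Psmb8 and Tap2 lie at 186.7 to 203.2 kb from the start of H2-K1. Between H2-K1 and H2-D1, 128 further genes are on no list here, of which 45 were tested. Of the 45, 12 were higher (26.7%), 10 lower (22.2%) and 23 not called, with a median log2 fold change of -0.01. Among all tested genes 31.8% were higher and 34.1% lower, and a difference between the region and the rest was not tested. None of the 45 starts between Brd2 at 122.4 kb and Notch4 at 563.9 kb, so the stretch around Tap1, Psmb9, Psmb8 and Tap2 is not covered. The class II genes there are not counted, among them H2-DMb1 (log2 fold change 1.37) and H2-DMa (-0.46). Ring1, a Polycomb subunit at 24.3 kb from H2-K1, was at 272.2 and 228.2 (log2 fold change -0.26, SE 0.116, adjusted p = 0.0592). Past both thresholds 2 of the 45 were higher and 6 lower, where 10.2% and 10.5% of all tested genes were. Among the lower was the sialidase gene Neu1, with a log2 fold change of -1.26 (SE 0.0991, adjusted p = 7.85e-08). Ring1 and Neu1 were named after their values were seen.

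**Figure D3:**
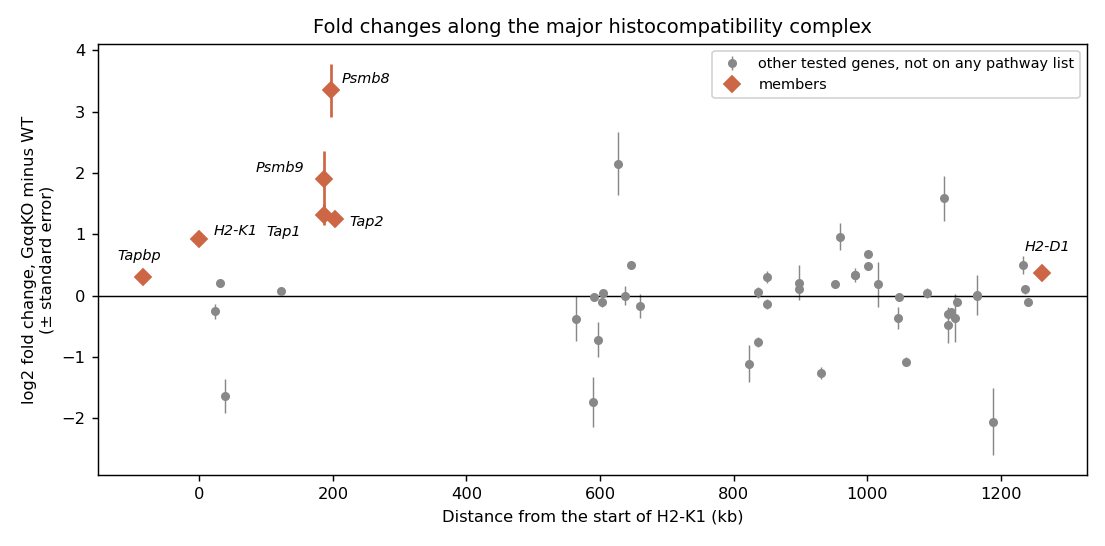
Log2 fold change (vertical axis, GαqKO minus WT, with its standard error) against the distance of each gene's start from that of H2-K1 in kb along chromosome 17. Orange diamonds are the 7 members there and grey points the 45 tested neighbours on no list, which lie on both sides of 0. None of these lies between 122.4 and 563.9 kb. The members run from 0.31 (Tapbp) to 3.35 (Psmb8).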

How the data were processed

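The authors sequenced poly-A RNA (paired-end, 150 bases), aligned reads with Rbowtie2 to GRCm39, counted them with featureCounts on GENCODE release 32 and used DESeq2; versions and strand setting are not given in the sources used here. The deposited values are a signal: gene counts divided by 1 size factor per library. Whole reads were recovered in 5 libraries (100.0% of values whole within 0.1), but not accepted for GαqKO replicate 3. In replicate pairs the chi-square per gene was 2.44 to 5.5, more than counting noise gives. Symbols came from GENCODE release 39 (98.9% of identifiers).

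Groups followed the genotype labels. limma 3.58.1 (R 4.3.3) was run on log2(value + 1) with a trended prior and Benjamini-Hochberg adjustment, tested first on simulated data. edgeR 4.0.16 and DESeq2 1.42.0 on the reads of 5 libraries, scaling, filters, pseudocounts, prior, replicate block and left-out libraries were alternatives. Ratios were tested in scipy 1.17.1. Intervals of read ratios are conditional exact intervals and cover counting error only.

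The members and lists were chosen with earlier results of these data known. Named were the members, pathway genes fixed by name, the targeted genes, and in each list the called gene with the largest rise and fall at a mean of at least 100 normalized counts. Some genes that this rule selects are not reported here.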

Additional observations from a re-analysis of the deposited data

How the results depend on the processing

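Of 118 values of single members under 15 alternative settings, 117 kept their direction and their call. The exception was Psmb9 in DESeq2 on 5 libraries, at a log2 fold change of 1.83 (adjusted p = 0.138). Psmb8 and Psmb9 gave 14 of the 118 values each. Both passed the filter on low values only through GαqKO, so their direction was largely set in advance. With at least 10 normalized counts asked of every library, Psmb8 and Psmb9 were not tested, 3 members were higher past both thresholds, and of all 12054 genes 831 were higher and 765 lower, since fewer genes entered. Over the settings Psmb8 ran from 2.03 to 4.31 and Psmb9 from 1.26 to 2.17, both resting on few reads in WT, while H2-K1 ran from 0.90 to 0.99, H2-D1 from 0.34 to 0.40 and Nlrc5 from 2.97 to 3.34. A fit with the replicate block called 8 members higher and 0 lower, 23 other pathway genes higher and 27 lower, and same-numbered libraries did not deviate together (correlations of -0.045, -0.148 and -0.064), so the numbers were not taken as pairs. Among the named genes reported here the block moved the call of Rfx5 (adjusted p = 0.0559). Of 553 values of the named genes, 520 kept their call, 33 lost it and 0 reversed.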
